A study of Rattus norvegicus with 40 samples.

Results

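Male rats fed chow with 250 ppm lead acetate from birth to postnatal day 45 were compared with males that ate lead-free chow, in hippocampal RNA taken at postnatal day 55. Samples were chosen by their labels (male, postnatal period, 250 ppm, or male, control), which gave 4 exposed arrays and 4 control arrays of 40 in the series. The exposed animals had eaten control chow from day 45, so the arrays describe tissue after the end of exposure. All groups were killed at day 55 and 100 ng of total RNA was put on each array. The other 8 groups of 4 arrays were the postnatal 750 ppm males, the perinatal 250 and 750 ppm males (exposed through dams that ate lead chow from 10 days before breeding until weaning), the female equivalents and the female controls. The labels gave neither strain nor litter. Whether litters were shared within a group is therefore unknown, and the p-values reflect only how these samples spread.

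Lead is a neurotoxic metal that crosses the blood-brain barrier, displaces calcium and zinc from proteins and blocks NMDA receptors. The hippocampus, which serves learning and spatial memory, is among the regions most studied in exposed young animals. Immediate early genes such as Fos, Egr1 and Arc are transcribed within minutes of calcium entry into firing neurons. Oligodendrocytes wrap axons in myelin over the postnatal weeks in which these animals ate lead.

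The arrays measured 29214 probe sets on a log2 scale. The 8 arrays had medians of 7.0 to 7.04 and correlated pairwise at r = 0.992 to 0.996. The median SD of a probe set was 0.103 log2 among exposed arrays and 0.114 among controls. Control replicate 4 went against its label: Eif2s3, an X-linked gene read at 11.62 to 11.77 in exposed females and 11.15 to 11.42 in exposed males, had a signal of 11.69 there and 11.20 to 11.25 in the other arrays labelled male control. The label was kept, "control" below means the arrays so labelled, and results that rest on that array are also given without it. Among the 8 arrays, the sample numbers in the titles were 1970 to 1973 in controls and 2873 to 2876 in exposed animals. Exposure and whatever these numbers record therefore cannot be told apart in this comparison. Elsewhere in the series, the exposed female perinatal 750 ppm arrays were numbered 1978 to 1981.

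Few transcripts passed the test, and the named ones were all higher after lead. With limma and Benjamini-Hochberg adjustment over all probe sets, 10 of 29214 had an adjusted p under 0.05 (0.0342%), 8 of them higher (0.0274%) and 2 lower (0.00685%). Only 4 of the 10 carried a gene symbol: Ldaf1, Rpgr, Gpr63 and Pyroxd2. Ldaf1 encodes a lipid droplet assembly factor that works with seipin, Rpgr an X-linked regulator of ciliary transport, Gpr63 an orphan receptor of brain, and Pyroxd2 a mitochondrial oxidoreductase-like protein.

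Ldaf1 (probe set 10940603) had signals of 8.94, 8.90, 9.11 and 8.90 in exposed males, against 8.29, 7.88, 8.29 and 8.09 in controls. The groups were far apart, with the lowest exposed array above the highest control array. Ldaf1 rose by 0.83 log2 (SE 0.13, 95% interval 0.57 to 1.09, 1.77-fold, limma adjusted p = 0.00284). Without exposed replicate 3, the highest array, its difference was 0.78 and the limma adjusted p was 0.0539. The other proteins of lipid droplets did not follow it: of 18 measured genes on that list, Ldaf1 included, 10 were higher and 8 lower with a median of 0.03, and Bscl2, which encodes seipin, differed by -0.08 (SE 0.06). Lyrm1, a small mitochondrial protein gene separated from Ldaf1 on chromosome 1 by 4 annotated genes, had signals of 9.31, 9.41, 9.43 and 9.32 in exposed males and 9.27, 8.94, 9.12 and 9.08 in controls. The Lyrm1 groups did not overlap, and the difference of 0.27 (SE 0.07) missed the threshold (limma adjusted p = 0.287).

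Rpgr (probe set 10937501) read 7.91, 8.09, 8.16 and 7.88 in exposed males and 7.42, 7.33, 7.53 and 7.68 in controls. No exposed array reached down to the control range, and control replicate 4, the array against its sex label, was the highest control for this X-linked gene. Rpgr rose by 0.52 log2 (SE 0.10, 1.43-fold, limma adjusted p = 0.0281). The call held without exposed replicate 4 or control replicate 4 and was lost without any other single array (limma adjusted p = 0.061 to 0.215). A second probe set for Rpgr (10932343), of higher signal, averaged 8.32 in exposed males and 7.91 in controls, also without overlap. Its difference of 0.40 (SE 0.11) did not pass (limma adjusted p = 0.327).

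Pyroxd2 (probe set 10715400) read 7.11, 7.10, 6.96 and 7.40 in exposed males, against 6.35, 6.47, 6.38 and 6.34 in controls. Its control arrays lay close together, none above 6.47. Pyroxd2 rose by 0.75 log2 (SE 0.15, 1.69-fold, limma adjusted p = 0.0460). Gpr63 (probe set 10867948) read 9.15, 9.23, 9.14 and 9.32 in exposed males and 8.95, 9.0, 8.87 and 8.99 in controls, again without overlap. Gpr63 rose by 0.26 log2 (SE 0.05, 1.20-fold, limma adjusted p = 0.0460), the smallest of the differences that passed. Leaving out any 1 of the 8 arrays took both Pyroxd2 and Gpr63 above the threshold of 0.05, with limma adjusted p-values of 0.0856 to 0.266 for Pyroxd2 and 0.061 to 0.269 for Gpr63.

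Of the 6 probe sets with no symbol, 4 were higher and both of the lower calls were among them. Probe set 10919231 read 6.35, 6.30, 6.71 and 6.47 in exposed males and 5.37, 5.63, 5.38 and 5.87 in controls, and rose by 0.89 log2 (SE 0.14, limma adjusted p = 0.00284). Probe set 10700679 had the only difference above 1 log2 among the calls. It read 9.36, 10.31, 9.91 and 9.79 in exposed males and 10.74, 10.98, 11 and 11 in controls, and fell by 1.09 log2 (SE 0.19, limma adjusted p = 0.0223).

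**Figure D1:**
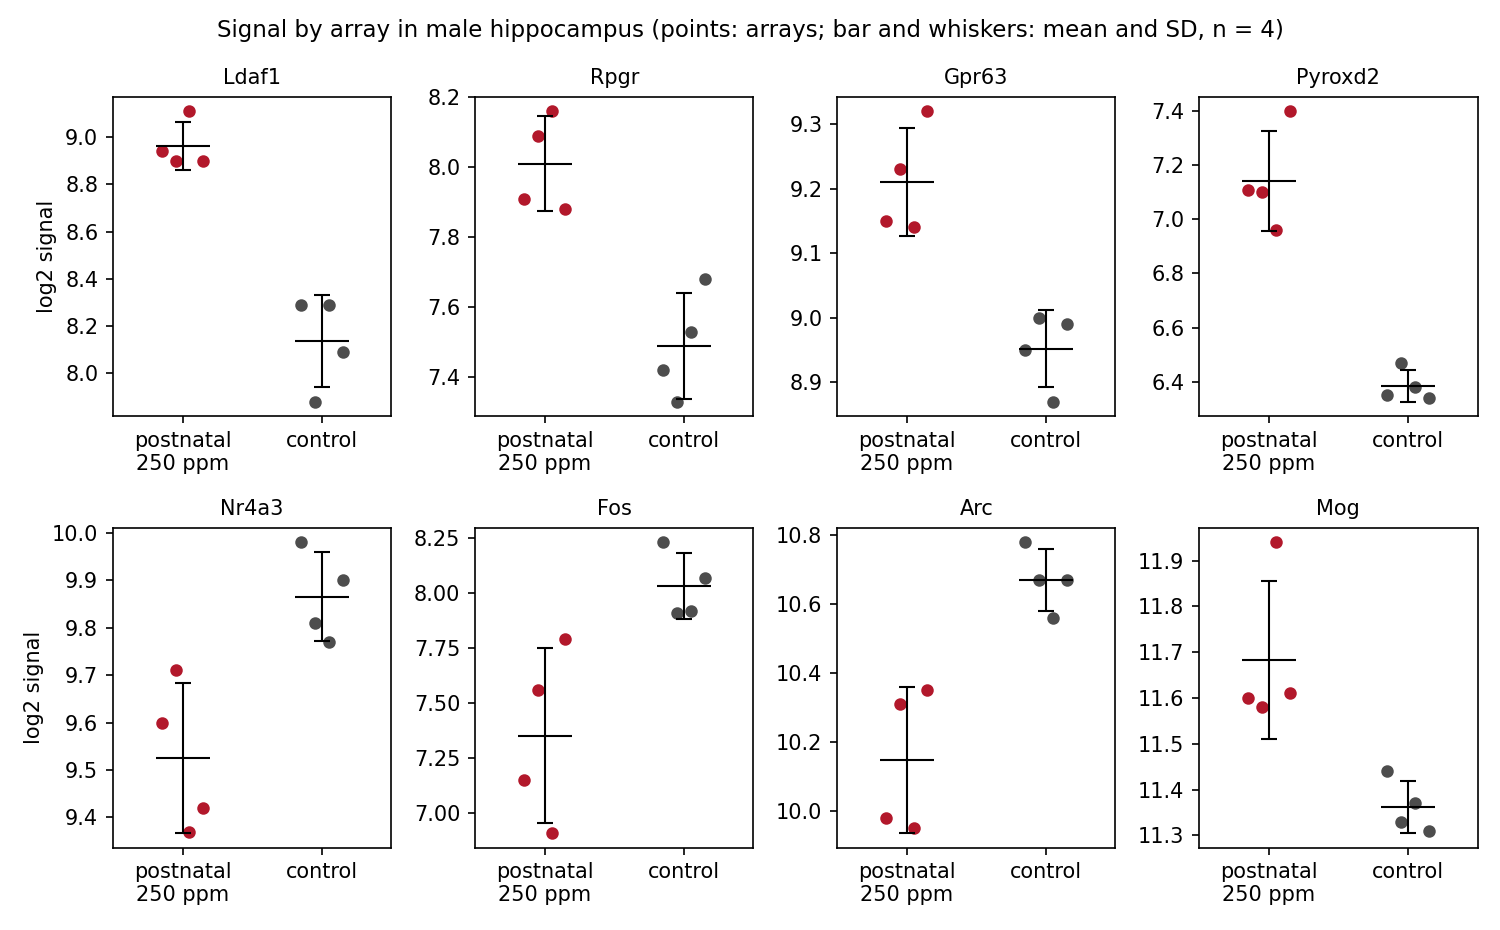
Log2 signal of each array (points) with the group mean and SD (bar and whiskers, n = 4) in exposed and control males, for the 4 named genes that passed the test (top row) and for Nr4a3, Fos, Arc and Mog, which did not (bottom row). In all 8 genes the exposed and control points do not overlap; the top row and Mog are higher in exposed males, and Nr4a3, Fos and Arc are lower.

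The count of calls depended on which arrays entered. Leaving out 1 of the 8 arrays gave 0 calls (without exposed replicate 3) to 7 (without control replicate 4, the array against its sex label). Without that array and the 2 female controls that also went against their labels, 5 probe sets passed, of which 4 were among the 10. A fit of the 8 arrays alone gave 0 calls. In the main fit of all 40 arrays, 1763 of the 29214 probe sets (6.03%) had an unadjusted limma p under 0.05.

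**Figure D2:**
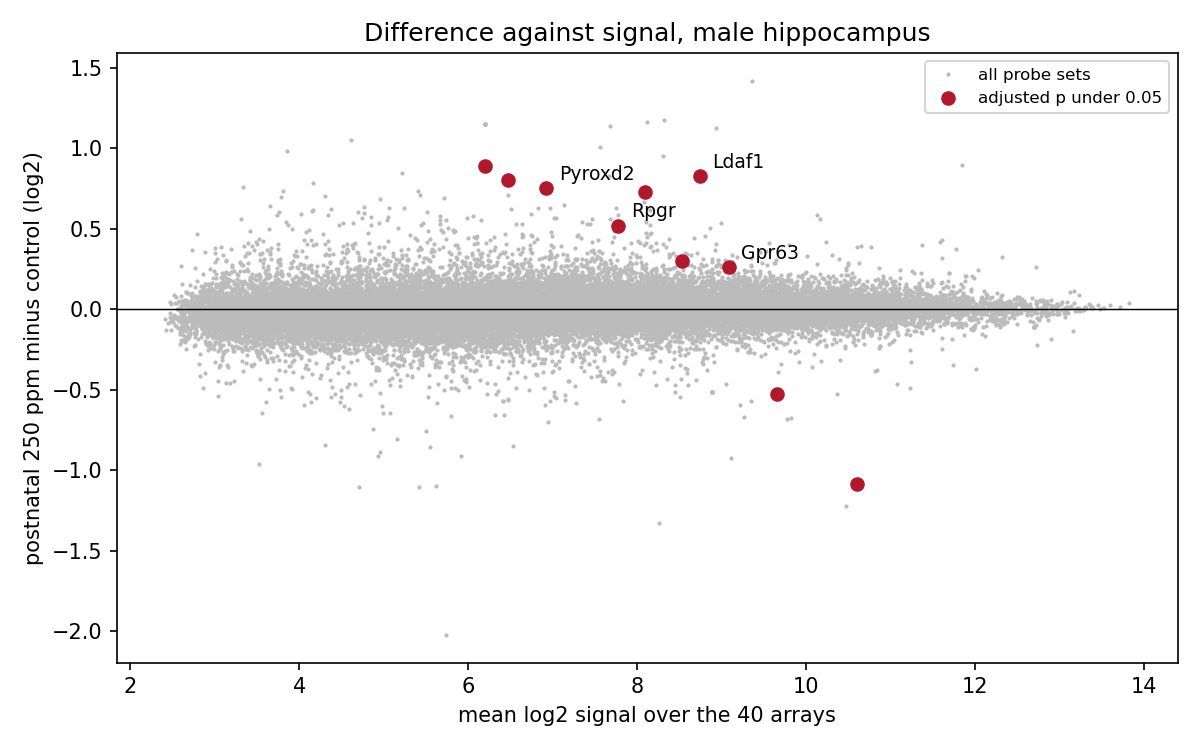
Difference between exposed and control males (log2, vertical) against the mean log2 signal over the 40 arrays (horizontal), 1 grey point per probe set. The 10 red points passed the limma test at an adjusted p under 0.05, and the 4 with a gene symbol are named.

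Beyond the threshold, 26 further genes had the smallest p-values among those whose groups did not overlap. Of these, 15 were higher and 11 lower, with limma adjusted p-values of 0.0685 to 0.329. Over all 14506 genes, 1.79% were higher and 1.84% lower without overlap. Coro1b, a coronin that organises actin, was at 10.03, 10.11, 10.00 and 9.97 in exposed males and at 9.90, 9.81, 9.86 and 9.85 in controls, a difference of 0.17 (SE 0.04, limma adjusted p = 0.0685). Rbm3, a cold-inducible RNA-binding protein gene on the X chromosome, was at 9.65, 9.76, 9.87 and 9.66 in exposed males and at 9.56, 9.32, 9.40 and 9.20 in controls, a difference of 0.37 (SE 0.08, limma adjusted p = 0.0925). In both genes the lowest exposed array stood narrowly above the highest control array.

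Other genes of this kind that were higher included P2rx7, the ATP-gated channel of microglia (0.54), Efcab2, a component of the motile cilium (0.57), Ghr, the growth hormone receptor (0.30), and the histone demethylase gene Kdm4a (0.16). Zfp36l1 and Zfp36l2, which encode proteins that bind AU-rich elements and speed mRNA decay, were both lower. Zfp36l1 read 9.43, 9.34, 9.38 and 9.29 in exposed males and 9.69, 9.61, 9.61 and 9.69 in controls (-0.29, SE 0.07), and Zfp36l2 differed by -0.22 (SE 0.06). Alpl, tissue-nonspecific alkaline phosphatase (-0.34), Cxcl12, a chemokine (-0.26), and Cd93, a receptor of endothelium (-0.40), were lower as well. Mx2, an interferon-induced GTPase, had the largest difference in means of these 26 genes and a wide spread within both groups, with 8.13, 6.71, 7.03 and 8.16 in exposed males and 8.32, 9.20, 8.92 and 8.90 in controls. Its difference of -1.33 (SE 0.35) had a limma adjusted p of 0.322.

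Transcription factor genes that neurons induce on firing lay below controls as a group, though 0 of them passed the test over all probe sets. All 17 measured transcription factors of that kind were lower (against 50.3% of all 14506 genes), with a median of -0.27 log2 against 0.00 for all genes. Of the 17, 13 were lower at an unadjusted limma p under 0.05 (background 3.15%) and 8 were lower with no overlap between the groups (background 1.84%). Mean signal over the 17 was 8.44, 8.60, 8.26 and 8.62 in the exposed arrays, against 8.89, 8.85, 8.77 and 8.75 in the controls. Every exposed array was below every control array, and exposed replicate 3 was the lowest. The median was -0.34 without control replicate 4 and -0.23 without exposed replicate 3, with 17 of 17 lower both times.

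The bases upstream of some genes induced on firing are shown because the cyclic AMP response element (CRE) and the CArG box are the sites through which calcium signalling is known to reach such genes. RefSeq promoters (GRCr8) were matched by symbol for 30 of 37 measured activity genes. The 250 bases before the start are printed for the 4 of smallest p among those matched, 5′ to 3′ on the gene's strand: Egr2 (chr20:21054442-21054691, minus strand), Nr4a1 (chr7:134259888-134260137, plus strand), Sik1 (chr20:9958647-9958896, minus strand) and Fosl2 (chr6:30039270-30039519, minus strand). Capitals mark the CRE core TGACG, read on either strand (CGTCA on the printed one), and the CArG box.
Egr2: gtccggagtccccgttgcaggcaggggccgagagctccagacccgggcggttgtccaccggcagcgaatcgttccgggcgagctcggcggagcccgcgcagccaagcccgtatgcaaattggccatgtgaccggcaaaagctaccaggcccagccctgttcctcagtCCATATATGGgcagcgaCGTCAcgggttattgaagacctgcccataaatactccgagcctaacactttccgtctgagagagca
Nr4a1: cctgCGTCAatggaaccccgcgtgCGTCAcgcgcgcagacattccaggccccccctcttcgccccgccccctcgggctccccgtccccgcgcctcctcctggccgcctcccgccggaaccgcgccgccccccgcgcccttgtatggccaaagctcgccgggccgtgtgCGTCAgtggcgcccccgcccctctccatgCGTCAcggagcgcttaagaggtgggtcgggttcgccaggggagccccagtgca
Sik1: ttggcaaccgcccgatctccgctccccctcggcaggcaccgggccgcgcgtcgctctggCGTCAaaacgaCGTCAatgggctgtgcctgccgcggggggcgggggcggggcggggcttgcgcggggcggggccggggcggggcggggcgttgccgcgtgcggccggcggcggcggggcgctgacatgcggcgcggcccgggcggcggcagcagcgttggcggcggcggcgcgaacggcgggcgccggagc
Fosl2: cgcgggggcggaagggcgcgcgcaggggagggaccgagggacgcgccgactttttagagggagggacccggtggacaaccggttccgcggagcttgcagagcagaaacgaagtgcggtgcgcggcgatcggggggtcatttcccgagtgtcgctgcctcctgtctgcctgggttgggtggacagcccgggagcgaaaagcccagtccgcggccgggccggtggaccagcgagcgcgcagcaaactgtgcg

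The CRE core stood once in the Egr2 window, next to 1 CArG box, 4 times in that of Nr4a1 and 2 times in that of Sik1, and the Fosl2 window held neither. The core, searched on both strands, was in 9 of 12 matched promoters of the transcription factors, 8 of 18 of the effector genes and 3 of 12 of the mature myelin genes, against 19.0% of 27457 promoters of the same length. The full site TGACGTCA, which contains the core, was in 3 of 12, 2 of 18 and 0 of 12, against 1.7% of all. A CArG box was in 2 of 12, 1 of 18 and 1 of 12, against 1.5%. These are matches of letters in a short window and were not tested as binding sites.

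The orphan nuclear receptor genes of the Nr4a family were among the lower genes. Nr4a3 read 9.60, 9.71, 9.37 and 9.42 in exposed males and 9.98, 9.81, 9.77 and 9.90 in controls. Its difference of -0.34 (SE 0.08) had the smallest p of the list (limma adjusted p = 0.210). Nr4a1 read 9.09, 9.18, 9.03 and 9.33 in exposed males and 9.96, 9.59, 9.49 and 9.85 in controls, again without overlap (-0.57, SE 0.17, limma adjusted p = 0.438). Nr4a2 overlapped (-0.10, SE 0.11).

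Fos and its partners showed the same order of groups. Fos, a subunit of AP-1, read 7.15, 7.56, 6.91 and 7.79 in exposed males and 8.23, 7.91, 7.92 and 8.07 in controls, a difference of -0.68 (SE 0.21, limma adjusted p = 0.509). Exposed replicates 1 and 3 were lowest for Fos, and replicates 2 and 4 came close to the controls. Junb differed by -0.39 (SE 0.13) without overlap, while Jun (-0.13, SE 0.07) and Jund (-0.06, SE 0.06) overlapped. Of the zinc finger factors, Egr2 read 6.68, 6.71, 6.40 and 6.98 in exposed males and 7.39, 7.36, 7.24 and 7.15 in controls (-0.59, SE 0.16, limma adjusted p = 0.322). Egr1, a factor required for lasting synaptic plasticity, read 11.06, 11.25, 10.84 and 11.27 in exposed males and 11.48, 11.59, 11.32 and 11.34 in controls (-0.33, SE 0.11, limma adjusted p = 0.616). Npas4, which neurons induce on calcium entry, split the exposed arrays most: 8.20 and 8.10 in replicates 1 and 3 but 9.60 and 9.64 in replicates 2 and 4, against 9.78, 10.04, 9.96 and 9.44 in controls.

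The effector proteins induced alongside these factors lay nearer to controls. Of 20 measured, 13 were lower and 7 higher, with a median of -0.03, and 4 were lower at an unadjusted limma p under 0.05 (background 3.15%). Arc, which removes AMPA receptors from synapses, read 9.98, 10.31, 9.95 and 10.35 in exposed males and 10.78, 10.67, 10.56 and 10.67 in controls. Its groups did not overlap (-0.53, SE 0.13, limma adjusted p = 0.267). Sik1, a kinase that restrains CREB-driven transcription, differed by -0.40 (SE 0.12). Dusp1 and Dusp6, phosphatases that switch off MAP kinases, differed by -0.67 (SE 0.23) and -0.28 (SE 0.09). Bdnf, the neurotrophin, differed by -0.02 (SE 0.08), and Homer1, a postsynaptic scaffold, by 0.08 (SE 0.07).

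**Figure D3:**
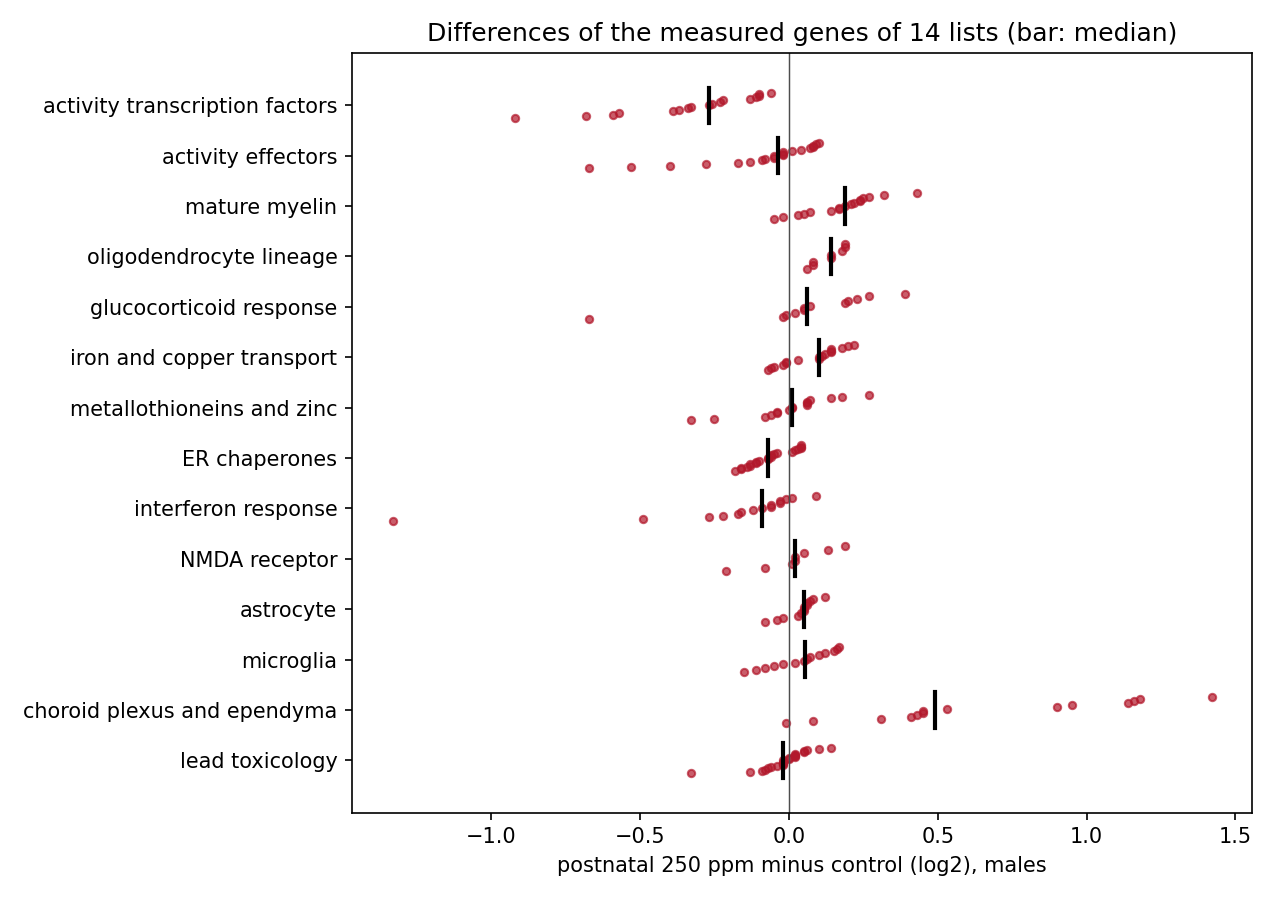
Differences between exposed and control males (log2, horizontal) of the measured genes of 14 lists, 1 point per gene, with the median as a black bar. All 17 activity transcription factors lie left of 0 and 15 of 17 mature myelin genes lie right of it.

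Genes of myelin lay above controls, by amounts that differed between the exposed arrays. Of 17 mature myelin genes, 15 were higher and 2 lower, with a median of 0.19 log2 (49.6% of all genes were higher). At an unadjusted limma p under 0.05, 8 were higher (background 3.58%), 3 were higher without overlap (background 1.79%), and 0 passed over all probe sets. Mean signal over the list was 10.77, 10.83, 11.15 and 10.99 in the exposed arrays, against 10.82, 10.69, 10.79 and 10.74 in the controls. Exposed replicates 3 and 4 stood above all controls, replicate 2 lay just above the highest control, and replicate 1 lay inside the control range. Without exposed replicate 3 the median was 0.13 and 13 of 17 were higher.

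Cldn11, the claudin that seals myelin lamellae, read 11.91, 11.95, 12.28 and 12.15 in exposed males and 11.87, 11.74, 11.88 and 11.83 in controls (0.24, SE 0.06, limma adjusted p = 0.337). Mog, a glycoprotein on the outer face of myelin, read 11.60, 11.58, 11.94 and 11.61 in exposed males and 11.44, 11.33, 11.37 and 11.31 in controls (0.32, SE 0.09, limma adjusted p = 0.423). Both were without overlap, as was Septin4 (0.19, SE 0.07). Ugt8 and Fa2h, enzymes of myelin galactolipid synthesis, differed by 0.27 (SE 0.11) and 0.21 (SE 0.10) with overlap. Mbp, myelin basic protein, differed by only 0.07 (SE 0.07). In bulk tissue, more cells of a type and more RNA per cell cannot be told apart.

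Genes of oligodendrocyte precursors and of the lineage were all higher, 8 of 8 (background 49.6%), with a median of 0.14. At an unadjusted limma p under 0.05, 3 of the 8 were higher (background 3.58%), and 0 passed over all probe sets. Mean signal over the 8 was 9.13, 9.14, 9.28 and 9.23 in the exposed arrays and 9.09, 9.10, 8.97 and 9.10 in the controls, so the groups did not overlap but lay as close as 9.13 and 9.10. Without exposed replicate 3 the median was 0.09, still with 8 of 8 higher. Pdgfra, the growth factor receptor that marks precursors, read 9.57, 9.43, 9.50 and 9.51 in exposed males and 9.31, 9.27, 9.39 and 9.34 in controls (0.18, SE 0.06, limma adjusted p = 0.575). It was the only gene of the 8 without overlap (background 1.79% higher). Gpr17, a receptor of committed precursors, differed by 0.19 (SE 0.07), and the lineage factors Olig1 and Sox10 by 0.14 (SE 0.08) and 0.08 (SE 0.08).

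**Figure D4:**
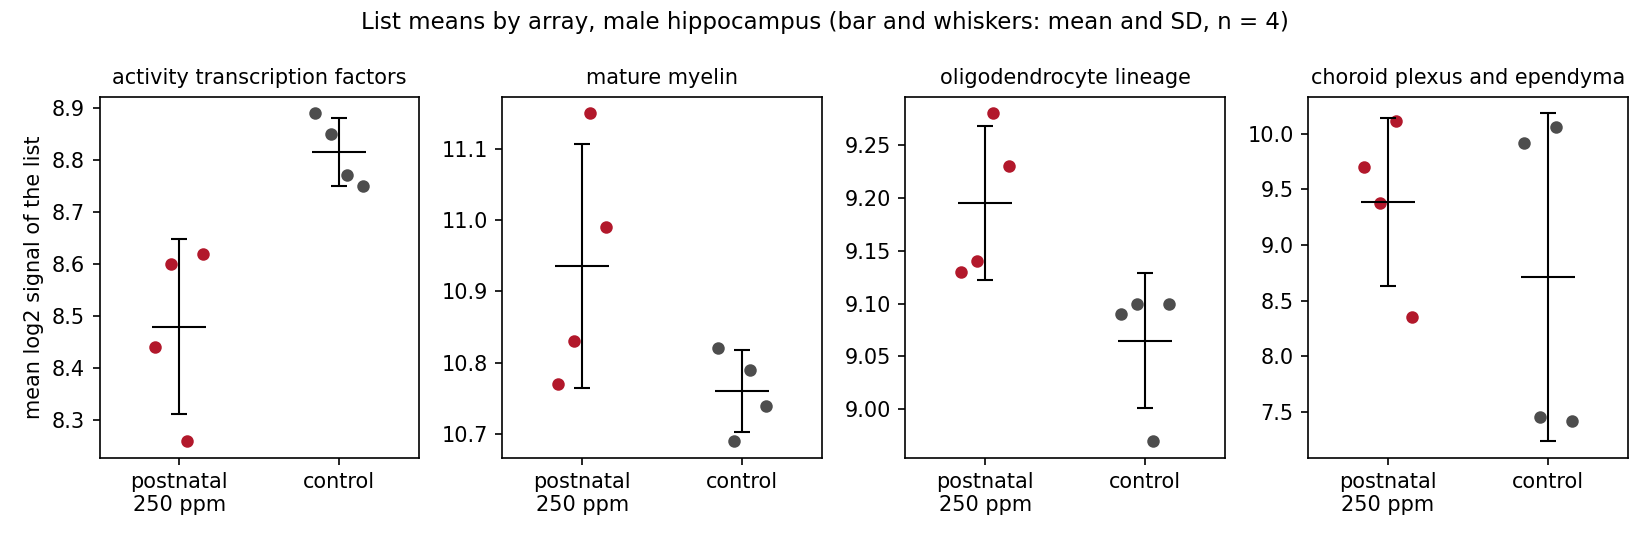
Mean log2 signal of the measured genes of 4 lists on each array (points), with the group mean and SD (bar and whiskers, n = 4). Activity transcription factors are lower and oligodendrocyte lineage genes higher in all 4 exposed arrays, mature myelin overlaps, and choroid plexus genes vary widely within both groups.

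Choroid plexus transcripts varied strongly between arrays of both groups. Of 14 choroid plexus and ependyma genes 13 were higher, with a median of 0.49, but the list's mean was 9.70, 9.38, 10.12 and 8.35 in the exposed arrays and 9.92, 7.45, 10.06 and 7.42 in the controls. The spread lay within the groups, and control replicates 2 and 4 and exposed replicate 4 were low. The median was 0.15 without control replicate 4 and 0.26 without exposed replicate 3. Ttr, the thyroxine carrier of choroid plexus, ranged from 12.46 to 13.53 in exposed males and from 10.97 to 13.50 in controls, a difference of 0.90 (SE 1.24). Enpp2 is on both the myelin and the choroid plexus list, and its arrays followed the choroid plexus pattern (12.14, 12.02, 12.46 and 11.52 in exposed males, 12.19, 10.93, 12.56 and 10.73 in controls). Meningeal and matrix genes were higher in 14 of 16 (median 0.17), with array means of 8.18 to 8.90 in exposed males and 7.82 to 9.03 in controls, and a median of 0.09 without exposed replicate 3. The part of these tissues in the other results was not tested.

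Markers of the main hippocampal cells differed little. The median was -0.01 for 8 dentate granule cell genes, -0.02 for 15 pyramidal cell genes and -0.05 for 14 interneuron genes. Prox1, the granule cell factor, differed by 0.01 (SE 0.08), and Wfs1, which marks field CA1, by 0.00 (SE 0.06). Sst, the interneuron peptide somatostatin, was at 12.01, 11.96, 11.84 and 12.10 in exposed males and at 12.10, 12.19, 12.08 and 12.15 in controls, a difference of -0.15 (SE 0.05). Astrocyte genes had a median of 0.05 (10 of 13 higher), with Gfap at -0.04 (SE 0.08), and microglia genes a median of 0.06 (9 of 14 higher). Markers of striatum, thalamus and habenula, neocortex, and hypothalamus and pituitary had medians of -0.05 to 0.01.

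Interferon-induced genes were lower in 13 of 15 (against 50.3% of all genes), with a median of -0.09. The list's array means were 6.55, 6.41, 6.59 and 6.55 in exposed males and 6.69, 6.76, 6.74 and 6.70 in controls, without overlap. Mx2 is among the 15 and had by far the largest difference (-1.33). The array means were not computed without it, so their separation may rest on that gene. The median was -0.15 without exposed replicate 3. After Mx2, Irf7, the regulator of interferon transcription, was the next by p, at 6.96, 6.60, 6.98 and 6.96 in exposed males and 7.17, 7.23, 7.09 and 7.08 in controls (-0.27, SE 0.11, limma adjusted p = 0.729). Endoplasmic reticulum chaperones were lower in 15 of 21 (median -0.07, background 50.3% lower). By p the first were the stress factor Xbp1 (-0.14, SE 0.06) and calreticulin, Calr (-0.11, SE 0.05), both with overlap. Of the 21, 1 gene was lower without overlap (background 1.84%), the disulfide isomerase gene Pdia4 (-0.13, SE 0.10). Cytosolic heat shock genes were lower in 7 of 13 (median -0.03).

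Metal-binding and iron genes gave a mixed picture. Mt2A, a metallothionein that binds zinc and lead, read 12.76, 12.70, 12.95 and 12.94 in exposed males and 12.54, 12.48, 12.59 and 12.66 in controls. Its groups were separate, with a difference of 0.27 (SE 0.07, limma adjusted p = 0.373), and a second Mt2A probe set differed by 0.32 (SE 0.09). Mt1 differed by 0.14 (SE 0.09) and the neuronal Mt3 by -0.06 (SE 0.07). Among 17 iron and copper genes 11 were higher (median 0.10, or 0.05 without exposed replicate 3 and 0.03 without control replicate 2), 4 of them at an unadjusted limma p under 0.05 (background 3.58%). These 4 were Aco1 (0.14, SE 0.04) and Ireb2 (0.12, SE 0.06), the iron regulatory proteins, Slc11a2, the iron transporter DMT1 that also carries lead in cultured cells (0.10, SE 0.04), and the ferroxidase gene Heph (0.18, SE 0.09). The zinc importer Slc39a8 differed by -0.25 (SE 0.13), which rested on control replicate 4: it read 8.15 there and at most 7.19 in the other controls, and the difference was 0.0021 without that array.

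Glucocorticoid-responsive genes were higher in 9 of 12 (background 49.6%), with a median of 0.06, or 0.13 without exposed replicate 2 and 0.15 without control replicate 3. Without exposed replicate 3 the median was 0.04, and without control replicate 4 it was 0.06, with 8 of 12 higher both times. Sgk1, a kinase induced by corticosterone, read 10.59, 10.62, 11.16 and 11.19 in exposed males and 10.52, 10.39, 10.64 and 10.46 in controls, a difference of 0.39 (SE 0.15, limma adjusted p = 0.681) in which exposed replicates 3 and 4 were high. Fkbp5, a brake on the receptor, differed by 0.19 (SE 0.10) without overlap. The receptor itself, Nr3c1, differed by 0.05 (SE 0.06). The largest difference in size on the list went the other way, in Dusp1, described above with the effectors (-0.67, SE 0.23, with overlap). Mt2A was also on this list (0.27, SE 0.07).

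Neurotransmitter receptors were close to controls. Of the NMDA receptor genes, which encode the channel that lead blocks, the main subunits Grin1, Grin2a and Grin2b differed by 0.02 (SE 0.04), 0.02 (SE 0.03) and 0.05 (SE 0.04). Grin2c, a minor subunit in hippocampus, read 9.21, 9.18, 9.16 and 9.11 in exposed males and 8.94, 9.01, 8.89 and 9.04 in controls (0.19, SE 0.06, limma adjusted p = 0.464). Grin3a, an NMDA receptor subunit gene, differed by -0.21 (SE 0.11) with overlap, and Grina, which encodes a glutamate receptor-associated protein, by -0.08 (SE 0.03) without overlap. At an unadjusted limma p under 0.05, 1 of the 8 genes on this list was higher (background 3.58%) and 2 were lower (background 3.15%). AMPA and kainate receptor genes and GABA-A receptor genes each had a median of 0.02, and the presynaptic glutamate receptor gene Grm2 differed by 0.27 (SE 0.09). Kcna4, an A-type potassium channel, differed by 0.28 (SE 0.08, limma adjusted p = 0.373). Camk4, the nuclear kinase that activates CREB, differed by 0.20 (SE 0.07) without overlap.

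Among 23 measured genes that earlier work on lead toxicity has named, 10 were higher and 13 lower (median -0.02), and 0 passed over all probe sets. At an unadjusted limma p under 0.05, 1 was higher (background 3.58%), Slc11a2, and 2 were lower (background 3.15%), Egr1 and Syn1, the vesicle protein synapsin (-0.07, SE 0.03). Alad, the heme enzyme whose activity lead inhibits, differed by 0.05 (SE 0.07), and Dnmt1 and Dnmt3a, the DNA methyltransferases, by 0.06 (SE 0.06) and 0.02 (SE 0.06). Of all 47 lists, 7 had a median of 0.1 or more in size, namely activity transcription factors, mature myelin, oligodendrocyte lineage, choroid plexus, meninges, red blood cells (0.14, or 0.05 without control replicate 4 and 0.09 without exposed replicate 4) and iron and copper. Medians of the other 40 lists lay between -0.09 and 0.06.

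Against the same dose given perinatally, which involves no control array, postnatal exposure differed in 1 probe set of 29214 (0.00342%). Ldah, a lipid droplet hydrolase, averaged 9.62 ± 0.12 in postnatal and 8.87 ± 0.44 in perinatal males (SD, n = 4 each), a difference of 0.75 (SE 0.11, limma adjusted p = 0.00291). Its range was 9.47 to 9.73 in postnatal males and 8.62 to 9.52 in perinatal males, and controls averaged 9.58 ± 0.12. The call was lost in a fit of the male groups only (limma adjusted p = 0.193) and without perinatal replicate 3 or 4, with limma adjusted p-values of 0.0618 and 0.0517. Perinatal replicates 1 and 3 had flattened signal over all probe sets, and the call held without both. Ldaf1 averaged 8.96 ± 0.10 in postnatal and 9.21 ± 0.18 in perinatal males, a difference of -0.24 (SE 0.13, limma adjusted p = 0.779). Pyroxd2 averaged 7.14 ± 0.18 in postnatal and 6.74 ± 0.21 in perinatal males (0.41, SE 0.15, limma adjusted p = 0.771). Activity transcription factors had a median difference of -0.04 and mature myelin genes of -0.08 between these groups. The largest list median was 1.38, for choroid plexus and ependyma genes, with 14 of 14 higher in postnatal males. That list's mean was 9.39 ± 0.76 in postnatal and 8.19 ± 1.02 in perinatal males. Microglia genes were also higher in 14 of 14, with a median of 0.09. Over all genes, 6950 of 14506 were higher.

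Against the higher dose in the same window, 3 probe sets of 29214 differed (0.0103%), all higher at 250 ppm. Fcrl2, a gene of the Fc receptor-like family, averaged 7.12 ± 0.09 at 250 ppm and 5.83 ± 0.13 at 750 ppm (SD, n = 4 each), a difference of 1.29 (SE 0.20, limma adjusted p = 0.00696). In controls Fcrl2 averaged 7.37 ± 0.07. Vom2r44, a vomeronasal receptor gene, averaged 6.24 ± 0.21 at 250 ppm and 5.46 ± 0.12 at 750 ppm (0.77, SE 0.14, limma adjusted p = 0.0173). Slc18a1, a vesicular monoamine transporter, averaged 6.54 ± 0.12 at 250 ppm and 6.05 ± 0.10 at 750 ppm (0.48, SE 0.08, limma adjusted p = 0.0158). Fcrl2 lost its call without exposed replicate 2 or 4 at 250 ppm (limma adjusted p = 0.0537 and 0.0616), as did the other 2 genes, so that 0 calls were left. Vom2r44 and Slc18a1 also lost their calls without replicate 1 at 250 ppm and without most single arrays at 750 ppm. The same held after quantile normalization (limma adjusted p = 0.1 and 0.0656) and with the male groups only (limma adjusted p = 0.146 for each). Of the genes that passed against controls, Rpgr averaged 8.01 ± 0.13 at 250 ppm and 7.67 ± 0.06 at 750 ppm (0.34, SE 0.10, limma adjusted p = 0.900), and Ldaf1 8.96 ± 0.10 and 9.13 ± 0.24 (-0.16, SE 0.13).

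**Figure D5:**
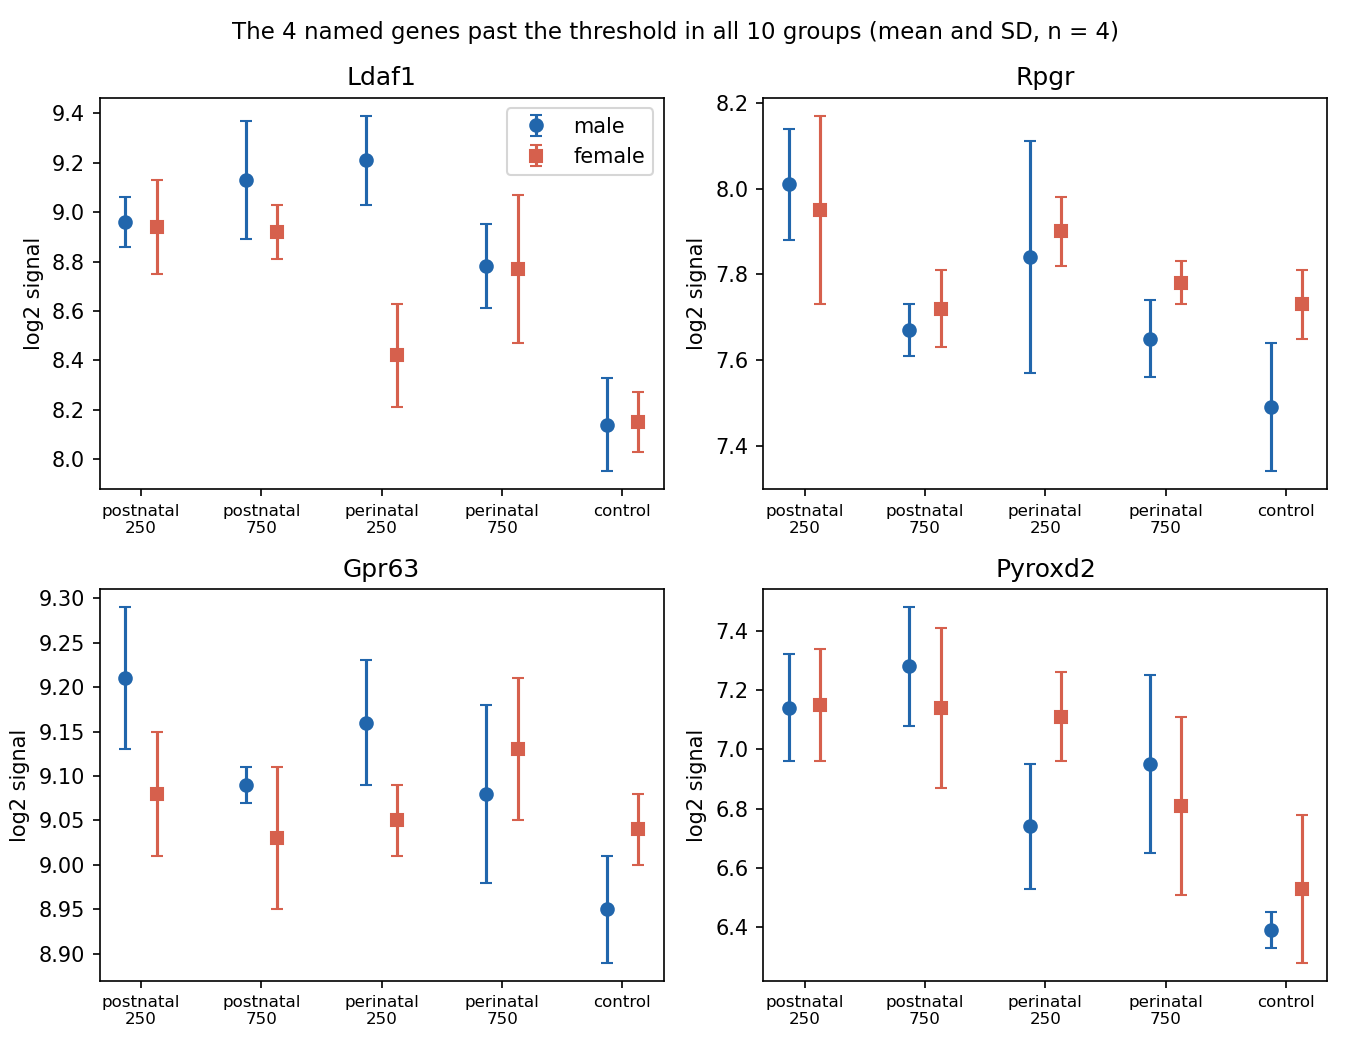
Mean log2 signal with SD (n = 4) of Ldaf1, Rpgr, Gpr63 and Pyroxd2 in the 5 male groups (circles) and the 5 female groups (squares), by exposure window and dose in ppm. Ldaf1 means are 8.42 to 9.21 in exposed groups, against 8.14 and 8.15 in the control groups.

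The sexes were compared through the difference of their differences, postnatal 250 ppm minus control in males minus the same in females. With limma, 0 probe sets of 29214 passed (0%), while 671 (2.3%) had an unadjusted p under 0.05; the female controls in this test include 2 arrays against their sex labels. Ldaf1 averaged 8.96 ± 0.10 in exposed males and 8.94 ± 0.19 in exposed females, against 8.14 ± 0.19 in male and 8.15 ± 0.12 in female controls (difference of differences 0.04, SE 0.18). Gpr63 averaged 9.21 ± 0.08 in exposed males and 9.08 ± 0.07 in exposed females, against 8.95 ± 0.06 in male and 9.04 ± 0.04 in female controls (0.22, SE 0.07, limma adjusted p = 1). Fos had a difference of differences of -0.77 (SE 0.30) and Arc of -0.45 (SE 0.18), both with a limma adjusted p of 1. The mean of the activity transcription factors was 8.48 ± 0.17 in exposed males and 8.66 ± 0.09 in exposed females, against 8.81 ± 0.07 in male and 8.70 ± 0.18 in female controls. The named genes of smallest p were Zfp36l2 (-0.33, SE 0.08, limma adjusted p = 1) and Gnl3 (0.52, SE 0.12, limma adjusted p = 1), and Gnl3 was singled out after its value was seen.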

How the data were processed

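Hippocampal RNA was measured on Affymetrix arrays, and the authors deposited log2 signals with RMA and Partek named per the submitters' processing notes (versions not given in the sources used here). RMA corrects background and equalises array distributions, so a shift common to most genes cannot be seen. The values (2.07 to 13.93) were used as deposited. One limma 3.58.1 model (R 4.3.3, statmod 1.5.0) took the 40 arrays together, giving each of the 10 groups its mean and moderating variances along a trend on signal. Two-sided p-values were Benjamini-Hochberg adjusted over 29214 probe sets and called under 0.05. Of these, 15310 had 1 symbol, 323 several and 13581 none. In counts over genes and lists, a gene was its probe set of highest mean (14506 genes). Calls were taken from all probe sets. By the highest mean, 3 genes were called, because Rpgr was called only through its probe set of lower signal (10937501). The groups, the 47 gene lists and the naming rule were chosen with earlier results of these data known. The rule named called genes, then those of smallest p without overlap up to 30, up to 4 genes a list, and members above 0.5 log2. Other genes were chosen after their values were seen. The comparison with controls was also run on simulated data (29214 probe sets). There, 75% of 100 shifts of 0.5 log2 were found, 96% of 100 shifts of 1 log2, and 6 calls (3.39%) were false. The Benjamini-Hochberg cutoff is looser when more probe sets are shifted, and the real comparison gave only 10 calls. These rates hold for the simulated mix of shifts and do not give the share of real differences that was found. Alternatives were filters, normalization, other array sets and variance models, and leaving out arrays. Promoters came from RefSeq (GRCr8). Figures used matplotlib 3.10.9.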

Additional observations from a re-analysis of the deposited data

Results flagged for a closer look

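A single array stood far from the other 3 of its group in 33 of 480 combinations of a named gene and a group, where chance gives about 1 in 20. In exposed males they were P2rx7 (7.90), Grm3 (10.29) and App (12.03) in replicate 1, and Gpx4 (9.08), Irf7 (6.60) and Grik1 (8.33) in replicate 2. Exposed replicate 3 stood apart for Adamts2 (7.71), Mog (11.94), Mpped1 (10.66), Lhx6 (7.62) and Tac1 (6.32), and exposed replicate 4 for Or12d2c (4.15), Nr1d2 (10.28), Itgam (6.47) and Rfx3 (9.50). In control replicate 4, the array against its sex label, these were Eif2s3 (11.69), Slc39a8 (8.15), Vcan (8.90), Grina (11.84), Ndrg2 (12.90), Camk2a (12.96) and Atp5po (9.44). In the other control arrays they were probe set 10700679 (10.74) and Calb2 (8.07) in replicate 1, Gfus (9.56), Urod (9.34), Lhx6 (7.96) and App (12.15) in replicate 2, and Camk4 (9.37), Fezf2 (9.97), Bok (9.16), Grm3 (10.24) and Fech (8.46) in replicate 3.

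Signal in postnatal 250 ppm males differed from that in another exposed male group in 4 genes, by limma's test of that difference. They were Ldah against perinatal 250 ppm (0.75), and Fcrl2 (1.29), Vom2r44 (0.77) and Slc18a1 (0.48) against postnatal 750 ppm. Each of the 4 lost its call in some of the settings run.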

How the results depend on the processing

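The 10 calls against controls became 0 in a fit of the compared groups only, 1 with the male groups only, 1 with 1 probe set a gene and 5 without the 3 controls against their sex labels; leaving out 1 array gave 0 to 7. The other settings gave 7 to 10. For the perinatal comparison the 1 call became 0 with the compared groups only and with array weights, and 0 to 2 leaving out 1 array; with the male groups only there was 1 call, which was not Ldah (limma adjusted p = 0.193). For the 750 ppm comparison the 3 calls became 1 after quantile normalization, 8 with the compared groups only and 1 with the male groups only, and 0 to 3 leaving out 1 array. The sex comparison gave 0 calls in every setting run. Ldaf1 lost its call with the compared groups only (limma adjusted p = 0.0633) and without exposed replicate 3, and kept it in the other settings. The named differences that changed sign were near 0 or rested on 1 array. Without the 3 controls against their labels Slc39a8 was 0.0021, Gfap 0.0022, Eif2s3 0.088, Cacna1c 0.0094, Bdnf 0.0043 and App -0.0024; Nrgn was 0.015 after quantile normalization and 0.00023 with array weights. Leaving out 1 array gave -0.34 to 0.0021 for Slc39a8, -0.12 to 0.012 for Nos1, -0.0069 to 0.051 for Aplp1, -0.16 to 0.01 for Fga, -1.5e-05 to 0.086 for Grik1, -0.0042 to 0.10 for C1ql2, -0.071 to 0.0022 for Gfap, -0.0042 to 0.20 for Grm8, -0.04 to 0.0094 for S100b, -0.0038 to 0.094 for Ldah, -0.077 to 0.088 for Eif2s3, -0.032 to 0.048 for Dnmt3a, -0.052 to 0.026 for Cacna1c, -0.08 to 0.044 for Bdnf, -0.08 to 0.025 for Hmox1, -0.11 to 0.051 for Vdr, -0.034 to 0.065 for Slc18a1, -0.0071 to 0.023 for App and -0.02 to 0.013 for Nrgn. The cause of these changes was not tested. No paired analysis was possible because the labels give no replicate numbers. Signals near the lowest deposited values have no background call here, and 4 arrays a group limit the precision.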

Other observations

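Genes of other pathways, not described above, included several antioxidant genes. Of 25 measured, 16 were higher and 9 lower (median 0.02). Nqo1, a target of the stress factor Nrf2, differed by 0.26 (SE 0.10) and Prdx1, a peroxiredoxin, by 0.21 (SE 0.08), while Gpx4, which reduces lipid peroxides, differed by -0.19 (SE 0.06). Bmp4, a ligand that favours glia, differed by 0.23 (SE 0.09) and Id1, a target of that pathway, by -0.18 (SE 0.07), both without overlap. Dbp, an output of the circadian clock, differed by 0.15 (SE 0.06) without overlap. Serotonin and dopamine genes were lower in 16 of 21 (median -0.06), among them the receptor gene Htr1b (-0.15, SE 0.06). Genes of oxidative phosphorylation were higher in 19 of 23, with a median of only 0.04. None of the genes in this paragraph passed the limma test over all probe sets.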
